A study of Mus musculus with 57 samples.

Results

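The livers of 12 of the 57 mice in the series were set directly against each other: 5 mice given thioacetamide (TAA) and 7 given concanavalin A (ConA). TAA is a small chemical that injures the liver, and ConA is a plant lectin that injures it through the immune system. The pair was chosen by the similarity of the measured responses: of the 6 chemical toxicants in the series, TAA gave the response most like that of ConA across genes. Over 12834 genes, the log2 fold changes of TAA and ConA, each against the vehicle of its route, had a Pearson correlation of 0.63. The next highest value with ConA was 0.589, for acetaminophen, and the lowest was 0.378, for alpha-naphthyl isothiocyanate. These values chose the pair and are a description across genes, which are not independent.

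The series holds bulk RNA-seq of perfused mouse liver, made to assess and tune methods that estimate cell type proportions from whole tissue. All mice of these groups were wild-type males of the strain C57BL/6JJcl, 6 weeks old at the start, acclimatised for 1 week and fasted for 12 h before dosing. TAA was given by gavage and ConA into the tail vein, and livers were taken 24 h later, from the outer part of the left lateral lobe. The controls were 13 mice given 0.5% methylcellulose by gavage and 2 mice given saline intravenously. The amount of each compound, and which of methylcellulose, saline and corn oil carried it, are not given in the labels used here. Compound, route and carrier therefore cannot be told apart in the direct comparison. To limit this in part, genes that already differed between the gavage and the intravenous vehicle mice in the same direction, at an unadjusted p under 0.05, were left out of the genes called between TAA and ConA. With 2 saline mice this filter can miss differences, so a gene kept by it is not cleared of route or carrier.

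TAA is oxidised in hepatocytes, mainly around the central vein, to reactive products that bind proteins and lipids. Cells under such stress switch on genes of glutathione use and detoxification through the factor NRF2. ConA binds sugars on cell surfaces and activates T cells and natural killer T cells in the liver sinusoids. These release interferon gamma, which acts on neighbouring cells through the factor IRF1 and a large set of defence genes. Interleukin 6 and related cytokines drive the acute phase response, in which hepatocytes secrete serum amyloid, haptoglobin and other plasma proteins.

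The promoters of 5 genes from the lists described later show the sequence elements that these 2 signalling routes are known to use. Each line gives the 120 bases before the annotated start of the gene, 5′ to 3′ on the strand of the gene, from RefSeq on build GRCm38.p6. Capitals mark the match to the motif named in the line. The interferon-stimulated element was searched as TTTC, any 2 bases and TTTC again, the STAT palindrome as TTCNNNGAA and the antioxidant response element, which NRF2 binds, as TGACNNNGC, each on both strands.
Irf1, STAT palindrome, chr11:53769894-53770013, plus strand: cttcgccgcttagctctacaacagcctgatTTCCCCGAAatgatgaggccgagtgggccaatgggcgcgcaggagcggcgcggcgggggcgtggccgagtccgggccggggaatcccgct
Gbp5, STAT palindrome, chr3:142496814-142496933, plus strand: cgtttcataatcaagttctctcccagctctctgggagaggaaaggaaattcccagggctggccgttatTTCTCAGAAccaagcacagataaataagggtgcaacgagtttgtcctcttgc
Gbp2, interferon-stimulated element, chr3:142620543-142620662, plus strand: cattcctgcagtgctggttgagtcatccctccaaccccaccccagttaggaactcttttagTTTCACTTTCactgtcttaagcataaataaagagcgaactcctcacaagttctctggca
Isg15, interferon-stimulated element in 3 overlapping matches, chr4:156200819-156200938, minus strand: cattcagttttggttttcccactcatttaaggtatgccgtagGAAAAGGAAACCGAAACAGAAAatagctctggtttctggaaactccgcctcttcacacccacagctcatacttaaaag
G6pdx, antioxidant response element, chrX:74428881-74429000, minus strand: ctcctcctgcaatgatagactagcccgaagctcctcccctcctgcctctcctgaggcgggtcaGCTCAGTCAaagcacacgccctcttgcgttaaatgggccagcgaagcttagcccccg

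In windows of 250 bases before to 50 after a start, the interferon-stimulated element was present in 3.44% of all 32851 windows in the table. It was present in 3.22% of the windows of genes tested here, and in 6.11% of the 1849 windows of genes higher in ConA. Among genes higher in ConA by a log2 difference of at least 3 it was in 27 of 145 windows (18.6%). It was in 13 of 25 windows (52%) of the interferon list and in 0 of 61 windows of genes higher in TAA by at least that much. The antioxidant response element was in 12.4% of all windows, in 14.2% of those of tested genes and in 15.2% of those of genes higher in TAA, against 13.9% of those higher in ConA. Among genes higher by at least 3 it was less frequent than among tested genes, with 9.84% of windows for TAA and 11.7% for ConA. It was in 8 of 16 windows (50%) of the NRF2 target list. The STAT palindrome was in 8.3% of all windows, in 6.97% of those of tested genes, and in 13.8% and 11.5% of those higher by at least 3 in ConA and TAA. It was in 7 of 25 windows (28%) of the interferon list and 5 of 16 (31.2%) of the NRF2 list, so its share did not separate the lists. The AP-1 motif TGACTCA was in 5.2% of all windows, in 13.8% of those of genes higher in ConA by at least 3 and in 8.2% of those higher in TAA by at least 3. Its letters partly overlap those of the antioxidant response element. These shares are descriptions with no test, and a match is not evidence that a factor binds there.

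Library totals were 22190371 to 30463927 estimated counts in TAA mice and 16652806 to 23670622 in ConA mice. Transcripts of the mitochondrial genome made up 10.8% to 24.4% of the TAA libraries (median 14.2%) and 14.6% to 39.3% of the ConA libraries (median 24.4%). Gene by gene, mice of a group correlated at 0.918 to 0.959 (TAA) and 0.912 to 0.955 (ConA) on the log2 scale. The mice TAA 1 and ConA 12 stood apart from their groups most often, with 12 and 11 outlying values among the named genes and marker sums. TAA 1 had the highest sum of 12 hepatocyte genes (104060 CPM, meaning counts scaled to a common library size, against 62685 to 70291 in the other TAA mice). ConA 12 had the lowest (37075, against 60301 to 79695 in the other ConA mice). Values without these 2 mice are given where they change a call. Among the gavage controls, mice 1 to 4 stood apart from the 9 mice numbered 7 to 18. Their interferon sums were 239 to 279 CPM against 284 to 535, their Kupffer cell sums 194 to 255 against 307 to 508, and their hepatocyte sums 73494 to 105901 against 49768 to 70644. Without these 4 mice, 6862 genes were called between TAA and its vehicle, 6545 of them shared with the 7247 called with all. Counts of list members above or below the gavage vehicle are also given without them where they change.

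Levels below are such CPM values after TMM scaling. TAA mice are listed in the order TAA 1, 3, 6, 7 and 8, and ConA mice by their range and median. Fold changes are TAA minus ConA on the log2 scale with their standard error, so that a negative value means higher in ConA. A gene is called at an adjusted p under 0.05 in edgeR's quasi-likelihood test.

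Of 13271 genes tested, 4019 (30.3%) were called between TAA and ConA. Between the vehicles themselves, 3.82% of 15199 genes had an unadjusted p under 0.05 and 0.0263% an adjusted one. The vehicle filter removed 85 of the called genes, of which 64 were higher in ConA. Of the 3934 kept (29.6%), 1947 were higher in TAA (14.7% of genes tested) and 1987 in ConA (15%), and the counts of the gene lists below stand against these shares. The levels of the groups did not overlap in 2115 genes (15.9%), 7.69% with TAA higher and 8.25% with ConA higher. An absolute log2 difference of at least 1 was reached by 2294 called genes. Just inside the filter lay Cables1 and Dek (vehicle p = 0.0496 for each), and just outside it lay Ccdc6 (0.0505) and Ankrd33b (0.0507). Of the called genes kept, 190 could not be tested between vehicles because their counts there were too low.

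The split between directions depended on the scaling. With TMM, the median log2 difference of all genes tested was 0.03, and 49% of called genes were higher in TAA. With library totals alone the median was 0.63, and 5079 of 5814 called genes (87.4%) were higher in TAA; 2703 of the 5814 calls were shared with the TMM result. All values below are from TMM. With library totals, 12 named genes gained a call, all higher in TAA, and 3 lost theirs. A further 10 named genes without a call changed from a negative to a positive value. These values are given beside their genes. Whether the higher mitochondrial share of the ConA libraries has a part in this shift was not tested. With the mitochondrially encoded genes left out, 4017 genes were called.

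Set against their own vehicles, TAA changed 7247 of 14360 genes (50.5%; 26.4% higher and 24% lower) and ConA 4827 of 14132 (34.2%; 16.8% higher and 17.3% lower). TAA was set against 13 control mice and ConA against 2, so the counts of calls differ in power. A gene with no call in ConA may still have changed there. With library totals the share of ConA calls above saline went from 49.3% to 22.7%. Among the 1987 genes higher in ConA, 629 were called above vehicle in both injuries, 398 above vehicle in ConA with no call in TAA, and 272 below vehicle in TAA with no call in ConA. Among the 1947 genes higher in TAA, 557 were below vehicle in both injuries, 464 were above vehicle in TAA with no call in ConA, and 391 were below vehicle in ConA with no call in TAA. The first class made up 31.7% of the genes higher in ConA and 28.6% of those higher in TAA. These classes use the same TAA and ConA mice as the direct test and are a description.

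**Figure D1:**
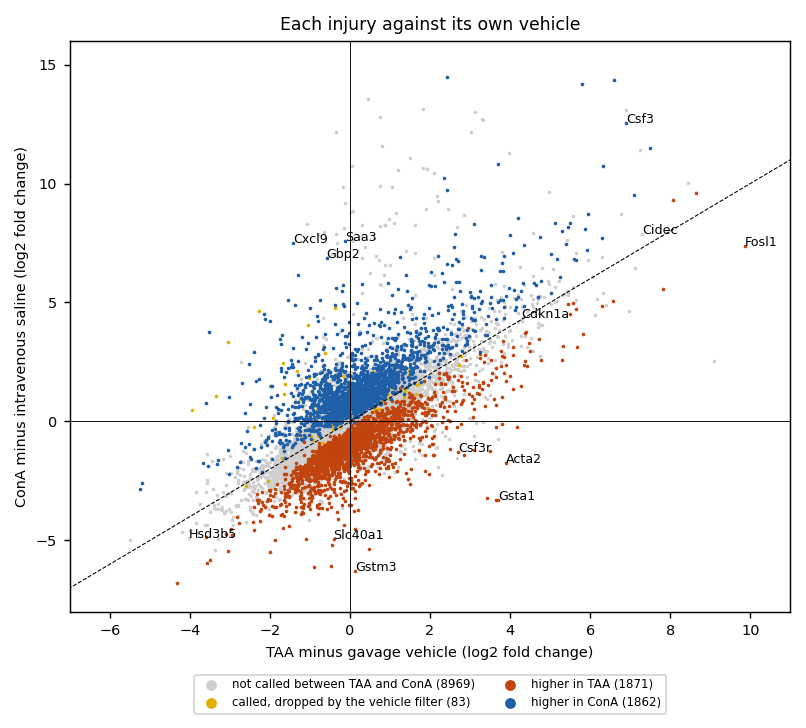
Log2 fold change of TAA against gavage vehicle (horizontal) and of ConA against intravenous saline (vertical) for 12785 genes tested in both, with 3 genes outside the axes. Colours give the direct call between TAA and ConA, the dashed line marks equal responses, and Cxcl9, Gbp2 and Saa3 lie far above it while Gstm3, Gsta1 and Slc40a1 lie far below it.

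Interferon genes had the lowest median of the 32 lists. All 28 members of the interferon list were called higher in ConA; 7 of these, among them Gbp7, Iigp1, Igtp, Irgm2, Psmb9 and Usp18, were removed by the vehicle filter, since they were also higher in saline than in methylcellulose mice. The median of the 28 was -4.63, beside 0.03 for all genes tested. The summed level of the list was 180 to 312 CPM in TAA mice, 2701 to 7605 in ConA mice, 239 to 535 under gavage vehicle and 576 and 594 in the saline mice. Against vehicle, 25 members were higher in ConA and 0 lower, while in TAA 4 were higher and 13 lower (3 and 18 without gavage mice 1 to 4). Every TAA mouse lay below every ConA mouse, and the TAA sums reached below the lowest gavage control.

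The ligand itself was near absent from TAA livers. Ifng, which encodes interferon gamma, measured 0, 0, 0, 0.0285 and 0 CPM in TAA mice and 0.397 to 2.88 (median 1.92) in ConA mice, and both saline mice were at 0. The single TAA value above 0 corresponds to 0.928 estimated counts, so no fold is given. Cd274, the checkpoint ligand PD-L1 and an interferon gamma target, measured 1.29, 1.29, 2.25, 6.75 and 1.76 CPM in TAA mice and 47.5 to 139 (median 104) in ConA mice. Its groups did not overlap (log2 fold change -5.21 ± 0.51, adjusted p = 8.82e-06), and TAA 7 was the highest of its group.

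Of the transcription factors, Irf1, which interferon gamma induces, measured 6.85, 9.99, 9.66, 23.8 and 11.3 CPM in TAA mice and 108 to 525 (median 311) in ConA mice (log2 fold change -4.69 ± 0.45, adjusted p = 7.72e-06). The median under gavage vehicle was 20.7 CPM, and the saline mice measured 32.6 and 20.1. Against its vehicle Irf1 was lower in TAA (-0.84 ± 0.23, adjusted p = 0.00462) and higher in ConA (3.54 ± 0.62, adjusted p = 0.00192). Stat2, a factor of type I interferon signalling, had -2.06 ± 0.28. Irf7 and Irf8, further factors of the family, had -3.36 and -3.93.

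Among the effectors, Gbp2, a GTPase of cell-autonomous defence, measured 4.55, 1.70, 1.19, 2.79 and 1.95 CPM in TAA mice and 289.9 to 791 (median 658) in ConA mice. Its difference was -8.03 ± 0.43 (adjusted p = 5.76e-08), and ConA 12 was the lowest ConA mouse. Gbp5 of the same family had -7.26 ± 0.60, and Gbp11 -7.44 ± 0.47. Tgtp1, an interferon-induced GTPase, had -8.44 ± 0.40; the members of these 2 GTPase families are similar in sequence, so that counts could be shared between them. Isg15, a ubiquitin-like modifier, measured 28.5, 13.8, 12.2, 36.7 and 17.3 CPM in TAA mice and 473 to 1462 (median 1212) in ConA mice (log2 fold change -5.73 ± 0.40, adjusted p = 4.94e-07). Rsad2, the antiviral enzyme viperin, had -6.69 ± 0.65. Ubd, a second interferon-induced ubiquitin-like protein, had -6.97 ± 0.37. In each of these the groups did not overlap.

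The chemokine Cxcl9, which draws activated T cells through CXCR3, had the second-lowest value of all named genes. It measured 9.18, 7.54, 4.02, 4.95 and 1.43 CPM in TAA mice, 1644 to 4741 (median 2513) in ConA mice, a median of 17.1 under gavage vehicle and 10.5 and 20.3 in the saline mice (log2 fold change -9.04 ± 0.57, adjusted p = 2.25e-07). TAA was below its vehicle (-1.41 ± 0.45, adjusted p = 0.0139). Ccl11, the eosinophil chemokine eotaxin, measured 0.123, 0.0368, 0, 0.0998 and 0.0902 CPM in TAA mice and 14.1 to 92.4 (median 54.2) in ConA mice. Its fitted value of -9.58 depends on the handling of near-zero counts in TAA mice.

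Class I antigen presentation genes were higher in ConA, and the class II genes tested were not called. Of 10 members tested of the MHC list, 4 were higher in ConA (15% of all genes), 0 in TAA and 6 were not called. H2-K1, a class I heavy chain, measured 1037, 767, 735, 735 and 802 CPM in TAA mice and 1601 to 2916 (median 2672) in ConA mice (log2 fold change -1.60 ± 0.18, adjusted p = 2.5e-05). H2-D1, another class I heavy chain, had -2.30 ± 0.17, Tapbp, which loads peptides onto class I, -2.84 ± 0.29, and B2m, the class I light chain, -1.18 ± 0.24. Class I genes are close paralogs, so the split of counts among them is uncertain. H2-Aa, a class II chain, measured 22.6 to 54.6 CPM in TAA mice and 22.0 to 64.6 in ConA mice (log2 fold change -0.16 ± 0.31, adjusted p = 0.728), and the sign was positive with library totals (0.42). Cd74, the class II chaperone, was not called (-0.74 ± 0.28, adjusted p = 0.0573) and passed the threshold without TAA 1 and ConA 12 (-0.93, adjusted p = 0.0284). The median of the 10 was -0.52, and 0.03 with library totals.

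Of 21 T and natural killer cell markers, 12 could be tested, 6 were higher in ConA (Gzmb, Gzma, Ctla4, Ifng, Il2rb and Nkg7) and 6 were not called (Cd2, Cd3d, Cd3e, Cd3g, Cd4 and Lck), with a median of -1.09. The summed level of all 21 was 5.58 to 10.6 CPM in TAA mice and 10.3 to 31.4 in ConA mice, and no marker was at 0 in all mice of either group. Gzmb, the killer protease granzyme B, measured 0.0449, 0.265, 0.180, 0.259 and 0.342 CPM in TAA mice and 2.60 to 6.53 (median 4.72) in ConA mice (log2 fold change -4.28 ± 0.38, adjusted p = 4.17e-06). Gzma, granzyme A, had -3.52 ± 0.71, and Ctla4, an inhibitory receptor of activated T cells, -3.60 ± 0.66. The T cell receptor chain Cd3e measured 0.361 to 0.810 CPM in TAA mice and 0.0878 to 0.820 in ConA mice and was not called (log2 fold change 0.61 ± 0.51, adjusted p = 0.391). In whole tissue, fewer cells of a type and less RNA per cell cannot be told apart. Gzmm, granzyme M, which the marker list does not hold, was higher in TAA, with 2.97, 5.36, 7.26, 5.04 and 6.86 CPM in TAA mice, 0 to 0.455 (median 0.173) in ConA mice and 0 to 0.302 under gavage vehicle (log2 fold change 4.74 ± 0.49, adjusted p = 1.31e-05). Of 4 B cell genes tested, Cd79a (3.08 ± 0.35) and Cd79b (1.58 ± 0.38), the signalling chains of the B cell receptor, were higher in TAA.

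The acute phase response was the second group in which every member differed in 1 direction. All 20 members were higher in ConA and kept by the vehicle filter, with a median of -1.95. Their summed level was 19537 to 26187 CPM in TAA mice, 99192 to 132054 in ConA mice and 15879 to 28356 under gavage vehicle. The TAA sums thus lay within the range of the gavage controls. Of the 20, all were above saline in ConA, while 7 were above and 2 below methylcellulose in TAA (6 and 3 without gavage mice 1 to 4).

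Saa1, a serum amyloid A protein, measured 485, 219.8, 213, 227 and 202 CPM in TAA mice and 7749 to 18608 (median 16894) in ConA mice (log2 fold change -5.82 ± 0.36, adjusted p = 2.06e-07). Saa2 had -7.19 ± 0.49 and Saa3 -7.41 ± 0.45; Saa1 and Saa2 are nearly identical and may share counts. Hp, haptoglobin, which binds free haemoglobin, measured 5582, 4949.7, 4123, 3858 and 5092 CPM in TAA mice and 14398 to 20360.4 (median 17067) in ConA mice (log2 fold change -1.85 ± 0.17, adjusted p = 6.18e-06). Fga, a chain of fibrinogen, had -1.90 ± 0.18, and Hamp, the iron hormone hepcidin, -2.78 ± 0.37. Orm2, an orosomucoid with close paralogs, had -3.93 ± 0.27. No TAA mouse reached the lowest ConA mouse in these genes.

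Lcn2, lipocalin 2, which withholds iron from bacteria, was above vehicle in both injuries. It measured 830.2, 1929, 1969, 1849 and 1876 CPM in TAA mice, 12835 to 17273 (median 14787) in ConA mice and a median of 43.5 under gavage vehicle (log2 fold change -3.17 ± 0.24, adjusted p = 1.24e-06). The log2 change from vehicle was 3.99 ± 0.74 in TAA and 7.84 ± 0.41 in ConA. TAA 1 was the lowest mouse. Il1rn, the interleukin 1 receptor antagonist, had -4.14 ± 0.36.

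**Figure D2:**
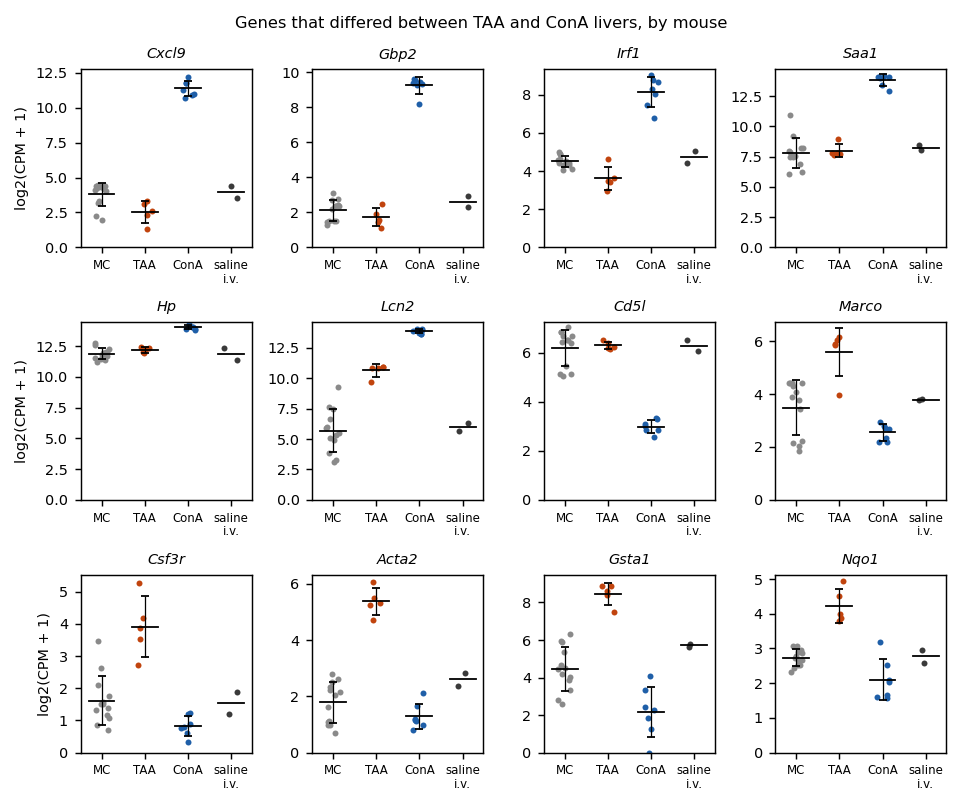
Level of 12 genes that differed, as log2(CPM + 1), in each mouse given methylcellulose (MC, 13 mice), TAA (5), ConA (7) or intravenous saline (2). Bars show the mean and, for groups of more than 2, the SD; the TAA and ConA points do not overlap in any panel, with the first 6 genes higher in ConA and the last 6 higher in TAA.

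Most cytokines and chemokines were higher in ConA as well. Of 21 tested, 15 were higher in ConA, 1 in TAA and 5 were not called, with a median of -2.42. Against their vehicles, 20 of the genes were above saline in ConA and 15 above methylcellulose in TAA. Csf3, the granulocyte growth factor G-CSF, measured 2.69, 0.591, 1.53, 9.76 and 1.23 CPM in TAA mice and 19.8 to 55.6 (median 41.9) in ConA mice (log2 fold change -3.65 ± 0.62, adjusted p = 0.00076). Ccl2, which recruits monocytes, measured 19.9, 28.7, 42.7, 143 and 23.7 CPM in TAA mice and 359.9 to 1117 (median 737) in ConA mice (log2 fold change -3.87 ± 0.54, adjusted p = 0.000166). In both, TAA 7 was the TAA mouse nearest to the ConA range, and the groups did not overlap. Cxcl10 had -6.02 ± 0.58, Ccl5 -5.16 ± 0.36 and Cxcl2, a neutrophil chemokine, -3.13 ± 0.66. Tnfaip3, a feedback inhibitor of NF-kappa B, had -3.43 ± 0.50.

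The single cytokine higher in TAA was Il1b, interleukin 1 beta, with 2.62, 4.66, 6.09, 43.2 and 4.66 CPM in TAA mice and 1.03 to 2.85 (median 2.46) in ConA mice (log2 fold change 2.42 ± 0.61, adjusted p = 0.00927). Its groups overlapped, and TAA 7 stood far above the others. Without TAA 7, the difference was smaller and still called (0.99, adjusted p = 0.0252). Il6, interleukin 6, measured 0, 0.0970, 0.344, 2.76 and 0.313 CPM in TAA mice and 2.68 to 13.7 (median 3.53) in ConA mice (log2 fold change -2.92 ± 0.84, adjusted p = 0.0182), with TAA 7 again highest. Without TAA 7 the difference in Il6 was larger (-4.73, adjusted p = 0.000505). Tnf was not called (-0.51 ± 0.63, adjusted p = 0.579).

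Adhesion molecules that endothelium shows under cytokines were higher in ConA. Icam1 measured 27.2, 22.1, 20.2, 33.0 and 26.4 CPM in TAA mice and 103 to 394 (median 301) in ConA mice (log2 fold change -3.44 ± 0.31, adjusted p = 5.01e-06). Vcam1 had -1.44 ± 0.27, Selp, P-selectin, -1.76 ± 0.32, and Sele, E-selectin, -1.90 ± 0.40. All 4 were above vehicle in TAA as well, for example by 1.55 ± 0.22 for Icam1 and 3.55 ± 0.40 for Selp. Of the 9 genes tested in this list, 5 were higher in ConA and 2 in TAA, with a median of -1.29. Esm1 and Apln, genes of growing endothelial tips, were higher in TAA (1.78 ± 0.41 and 2.12 ± 0.56). Net of the vehicles, as defined later, 1 of the 9 was called. Esm1 (adjusted p = 0.0734), Apln (0.464) and Sele (0.246) were not called net.

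Neutrophil markers reached overlapping sums in the 2 injuries, with members that differed in both directions. The summed level of the 14 markers was 153 to 832 CPM in TAA mice, 156 to 319 in ConA mice and 2.77 to 65.3 under gavage vehicle. Of the 14, 5 were higher in TAA, 2 in ConA and 7 were not called, with a median of 1.01. S100a8, a subunit of calprotectin, measured 42.9, 95.6, 115, 245 and 101 CPM in TAA mice and 35.7 to 94.2 (median 65.6) in ConA mice. It was not called (log2 fold change 0.88 ± 0.35, adjusted p = 0.0734) and passed the threshold without TAA 1 and ConA 12 (1.03, adjusted p = 0.0272). Without TAA 7 the value of S100a8 was 0.45, adjusted p = 0.287. Its partner S100a9 had 0.58 ± 0.37 (adjusted p = 0.261), and 0.03 without TAA 7. With library totals both were called higher in TAA (S100a8 1.57, adjusted p = 0.00287; S100a9 1.26, adjusted p = 0.0132).

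The neutrophil genes higher in TAA were Csf3r, Cxcr2, Retnlg, Mmp8 and Mmp9, and those higher in ConA were Ngp and Camp. Csf3r, the receptor of G-CSF, measured 5.56, 10.5, 17.0, 38.1 and 13.6 CPM in TAA mice, 0.262 to 1.37 (median 0.718) in ConA mice, 0.621 to 10.2 under gavage vehicle and 2.69 and 1.28 in the saline mice (log2 fold change 4.33 ± 0.47, adjusted p = 2.19e-05). Every ConA mouse lay below every TAA mouse. Ligand and receptor therefore went in opposite directions, since Csf3 was higher in ConA. Cxcr2, the receptor of Cxcl2, had 4.25 ± 0.48, and Mmp8, the neutrophil collagenase, 2.83 ± 0.47. Net of the vehicles, as defined later, Cxcr2 (3.49, adjusted p = 0.11), Retnlg (0.87, adjusted p = 0.649) and Mmp9 (0.65, adjusted p = 0.814) were not called. Mmp8 was not called net either (-0.09, adjusted p = 0.676), although it was 6.52 ± 0.59 above vehicle in TAA. The saline mice held almost no counts of Mmp8, so its net value is not read as a lack of difference. Ngp, neutrophilic granule protein, measured 0.800, 1.44, 1.56, 1.64 and 0.936 CPM in TAA mice and 15.5 to 26.9 (median 19.5) in ConA mice (log2 fold change -4.01 ± 0.24, adjusted p = 1.65e-07), and Camp, cathelicidin, had -5.29 ± 0.83. Camp was not called net of the vehicles (-4.31, adjusted p = 0.152).

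Genes of the resident macrophages of the liver, the Kupffer cells, differed without exception. All 8 markers were higher in TAA and kept by the filter, with a median of 2.62. Their summed level was 256 to 306 CPM in TAA mice, 31.3 to 54.4 in ConA mice, 194 to 508 under gavage vehicle and 326 and 329 in the saline mice. TAA sums lay between those of gavage mice 1 to 4 and those of the other 9 gavage mice, and every ConA sum lay below every vehicle mouse. Against vehicle, all 8 were lower in ConA, while in TAA 3 were lower and 1 higher (5 and 1 without gavage mice 1 to 4).

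Cd5l, a secreted macrophage protein, measured 90.8, 85.0, 69.8, 73.0 and 73.7 CPM in TAA mice, 4.87 to 9.05 (median 7.10) in ConA mice and a median of 90.9 under gavage vehicle (log2 fold change 3.45 ± 0.17, adjusted p = 3.63e-08). Gavage mice 1 to 4 measured 32.7 to 42.9 CPM of Cd5l and the other 9 measured 83.7 to 131. Against vehicle Cd5l in TAA was -0.04 ± 0.30 with all gavage mice (adjusted p = 0.933) and -0.37 ± 0.12 without these 4 (adjusted p = 0.0194). Slc40a1, the iron exporter ferroportin, measured 37.1, 37.0, 41.3, 39.7 and 35.6 CPM in TAA mice and 0.777 to 2.57 (median 1.23) in ConA mice (log2 fold change 4.67 ± 0.28, adjusted p = 1.64e-07). Clec4f, a lectin of Kupffer cells, measured 91.2, 54.8, 45.6, 42.7 and 62.0 CPM in TAA mice and 8.37 to 24.4 (median 13.1) in ConA mice (log2 fold change 2.00 ± 0.28, adjusted p = 0.00016). Clec4f was below vehicle in both injuries, by -0.99 ± 0.23 in TAA and -2.95 ± 0.34 in ConA. Marco, a scavenger receptor, was above vehicle in TAA (2.06 ± 0.44) and below it in ConA (-1.41 ± 0.27). Gavage mice 1 to 4 measured 2.62 to 3.62 CPM of Marco and the other 9 measured 9.90 to 20.4, a range that holds TAA 1. Without these 4 the value in TAA was 1.66 ± 0.27 (adjusted p = 0.000144). It measured 14.6, 65.7, 58.3, 69.6 and 56.3 CPM in TAA mice and 3.54 to 6.68 (median 5.43) in ConA mice (log2 fold change 3.40 ± 0.32, adjusted p = 6.63e-06). Vsig4, a complement receptor, had 2.97 ± 0.25. Cd163, the scavenger receptor for haemoglobin and haptoglobin, had 5.48 ± 0.37, with 4.96 to 8.10 CPM in TAA mice and 0.0521 to 0.361 in ConA mice.

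Of 12 markers of recruited monocytes and macrophages tested, 2 were higher in TAA, 1 in ConA and 9 were not called, with a median of 0.20. Their summed level leaned the other way, with 1315 to 1583 CPM in TAA mice and 1661 to 2570 in ConA mice. It was 1135 to 1396 CPM under gavage vehicle. The share called was near the 29.6% of all genes. Trem2, a lipid receptor of macrophages, measured 5.80, 2.57, 2.40, 2.71 and 3.40 CPM in TAA mice and 0 to 0.551 (median 0.115) in ConA mice (log2 fold change 4.08 ± 0.58, adjusted p = 0.000191). Lyz2, lysozyme, had 2.34 ± 0.20. Gpnmb, a gene of lipid-laden macrophages, measured 1.46 to 2.68 CPM in TAA mice and 0.474 to 2.73 in ConA mice (log2 fold change 0.93 ± 0.42, adjusted p = 0.107). ConA 12 held the highest value of the 12 TAA and ConA mice, and without TAA 1 and ConA 12 Gpnmb passed the threshold (1.42, adjusted p = 0.00231), as it did with library totals (1.35, adjusted p = 0.0456). Ccr2, the receptor of Ccl2, was too low to be tested, with 0.366, 1.21, 2.17, 3.74 and 1.47 CPM in TAA mice and 0 to 0.251 in ConA mice.

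Sinusoidal endothelial markers were higher in TAA in 5 of 11 tested, higher in ConA in 0, with a median of 0.83. Kdr, the VEGF receptor 2, measured 3.98, 2.22, 1.27, 1.72 and 0.886 CPM in TAA mice, 0.305 to 0.666 (median 0.389) in ConA mice and a median of 10.8 under gavage vehicle (log2 fold change 2.22 ± 0.38, adjusted p = 0.000725). It was below vehicle in both injuries, by -2.40 ± 0.26 and -4.56 ± 0.30. Gpr182, a sinusoidal receptor, had 2.62 ± 0.39, and Oit3, a secreted sinusoidal protein, 2.24 ± 0.26. Stab2, a hyaluronan receptor, was not called (0.25 ± 0.20), nor was Lyve1 (0.17 ± 0.21), but both were called higher in TAA with library totals (Stab2 0.88, adjusted p = 0.0128; Lyve1 0.82, adjusted p = 0.0161). Lyve1 was above vehicle in both, by 3.37 ± 0.20 and 2.97 ± 0.49. The summed level of the 13 markers was 128 to 164 CPM in TAA mice and 79.2 to 146 in ConA mice, and the groups overlapped.

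**Figure D3:**
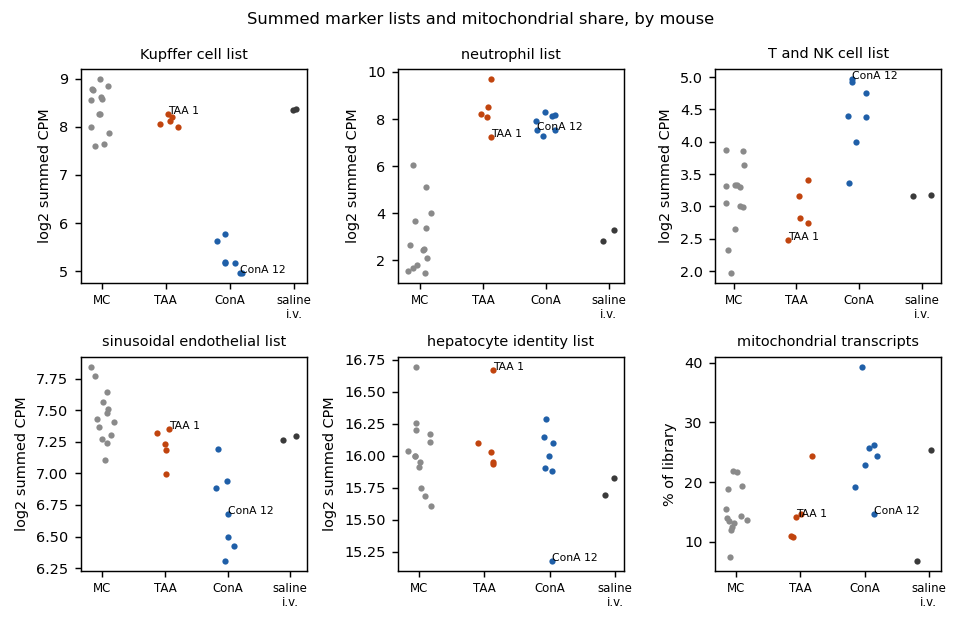
Sum of the CPM of each marker list on a log2 scale, and share of mitochondrial transcripts in percent, in each mouse given methylcellulose (MC), TAA, ConA or intravenous saline; TAA 1 and ConA 12 are labelled. The Kupffer cell sums of TAA (256 to 306 CPM) and ConA mice (31.3 to 54.4 CPM) are apart, while the neutrophil sums overlap.

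Of 14 genes tested in the stellate cell and matrix list, 4 were higher in TAA (Acta2, Tagln, Pdgfrb and Tgfbi), 2 in ConA (Timp1 and Col4a1) and 8 were not called, with a median of 0.78. Acta2, smooth muscle actin, measured 65.8, 39.2, 37.3, 25.6 and 43.9 CPM in TAA mice, 0.745 to 3.38 (median 1.25) in ConA mice and 0.605 to 6.00 under gavage vehicle (log2 fold change 4.74 ± 0.36, adjusted p = 1.22e-06). TAA was above its vehicle (3.90 ± 0.41, adjusted p = 2.13e-07) and ConA below saline (-1.75 ± 0.49, adjusted p = 0.0191). The 2 saline mice measured 6.11 and 4.17 CPM, and the ConA range lay within that of the gavage controls. Tagln, transgelin, had 3.86 ± 0.29, and Pdgfrb, the PDGF receptor of stellate cells, 1.33 ± 0.20.

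Timp1, the inhibitor of matrix metalloproteinases, went the other way. It measured 2.33, 7.63, 6.57, 11.0 and 6.45 CPM in TAA mice and 40.7 to 99.0 (median 57.6) in ConA mice (log2 fold change -3.33 ± 0.38, adjusted p = 3.01e-05), and was above vehicle in both injuries (2.75 ± 0.69 and 5.49 ± 0.55). Col4a1, a basement membrane collagen, measured 116, 115, 116, 108 and 112 CPM in TAA mice and 175 to 354 (median 297) in ConA mice (log2 fold change -1.31 ± 0.18, adjusted p = 0.000121). Col1a1, the main fibrillar collagen, was not called, with 12.1, 8.02, 3.64, 3.02 and 3.38 CPM in TAA mice and 1.46 to 5.19 (median 2.27) in ConA mice (log2 fold change 1.06 ± 0.41, adjusted p = 0.0652). Col1a1 passed the threshold without ConA 4 (1.25, adjusted p = 0.0408) and without TAA 7 (1.24, adjusted p = 0.0425). Without TAA 1, the highest mouse, it was 0.64, adjusted p = 0.222, and without TAA 1 and ConA 12 0.52, adjusted p = 0.296. With library totals it was called (1.64, adjusted p = 0.00271).

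Of 8 cholangiocyte and progenitor markers tested, 3 were higher in ConA (15% of all genes) and 5 were not called; the median was -0.71, and -0.08 with library totals. Sox9, a factor of bile duct cells and reactive hepatocytes, measured 8.40, 7.60, 15.8, 11.2 and 11.2 CPM in TAA mice and 14.5 to 53.1 (median 29.7) in ConA mice (log2 fold change -1.59 ± 0.36, adjusted p = 0.00449), from a median of 1.23 under gavage vehicle. The groups overlapped in TAA 6. With library totals the call was lost (-0.98, adjusted p = 0.059).

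NRF2 targets were higher in TAA. Of 14 tested, 10 were higher in TAA, 0 in ConA and 4 were not called, with a median of 1.42. The summed level was 2235 to 3074 CPM in TAA mice, 1255 to 2005 in ConA mice and 848 to 1634 under gavage vehicle. Against vehicle, 10 were higher and 1 lower in TAA, and 1 was higher and 4 lower in ConA.

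Nqo1, a quinone reductase, measured 12.8, 30.1, 14.8, 13.8 and 21.8 CPM in TAA mice, 2.00 to 8.09 (median 3.09) in ConA mice and 4.05 to 7.48 under gavage vehicle (log2 fold change 2.32 ± 0.38, adjusted p = 0.000515). Gsta1, a glutathione transferase, measured 179, 471, 389, 337 and 478 CPM in TAA mice, 0 to 15.8 (median 3.81) in ConA mice and 55.2 and 48.6 in the saline mice (log2 fold change 6.08 ± 0.79, adjusted p = 9.29e-05). It was above vehicle in TAA (3.70 ± 0.49) and below it in ConA (-3.30 ± 0.95). Gstm3, a further glutathione transferase, was near its vehicle in TAA (0.14 ± 0.50, adjusted p = 0.843) and far below it in ConA (-6.28 ± 0.48). Both transferases belong to families of near-identical genes, so that their counts could include reads of relatives.

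Gclc, which catalyses the first step of glutathione synthesis, had 1.43 ± 0.30, Txnrd1, thioredoxin reductase, 0.87 ± 0.17, Ugdh, which supplies glucuronic acid, 1.80 ± 0.38, and Srxn1, sulfiredoxin, 1.67 ± 0.44. G6pdx, whose promoter is shown earlier, makes NADPH and had 1.57 ± 0.32. Slc7a11, the cystine importer, measured 0.610, 0.786, 0.575, 2.40 and 0.708 CPM in TAA mice and 0.150 to 0.607 (median 0.359) in ConA mice (log2 fold change 1.42 ± 0.48, adjusted p = 0.0377), and the call was lost without TAA 7 (0.82, adjusted p = 0.171) and without any 1 of 6 other mice. Hmox1, haem oxygenase, was above vehicle in both injuries (3.69 ± 0.16 and 3.54 ± 0.31) and not called between them (log2 fold change 0.33 ± 0.15, adjusted p = 0.116).

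Protein stress genes differed in both directions. Of 15 tested, 4 were higher in TAA and 5 in ConA, with a median of -0.01, or 0.58 with library totals. Hspa1a, the inducible cytosolic chaperone HSP70, measured 9.74 to 24.6 CPM in TAA mice and 0.342 to 5.52 (median 0.656) in ConA mice (log2 fold change 3.46 ± 0.57, adjusted p = 0.000601). Ddit3, the stress factor CHOP, measured 37.9, 44.7, 53.5, 53.8 and 55.0 CPM in TAA mice and 18.0 to 26.8 (median 22.4) in ConA mice (log2 fold change 1.12 ± 0.14, adjusted p = 6.71e-05). Xbp1, a factor of the secretory pathway, measured 183, 135, 120.3, 132 and 159 CPM in TAA mice and 342 to 633 (median 525) in ConA mice (log2 fold change -1.84 ± 0.18, adjusted p = 8.82e-06). In these 3 genes the groups did not overlap. Hspa5, the chaperone of the endoplasmic reticulum, was called higher in ConA (log2 fold change -0.66 ± 0.23, adjusted p = 0.046), but the call was lost without any 1 of 9 mice and with library totals (-0.01, adjusted p = 0.969).

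Immediate early genes were above vehicle in all 11 members tested, in both injuries. Between them, 5 were higher in ConA and 1 in TAA, with a median of -0.52, or 0.10 with library totals. Fosl1, an AP-1 subunit, was the exception, with 55.7, 55.3, 45.7, 41.0 and 47.1 CPM in TAA mice, 5.38 to 16.9 (median 9.31) in ConA mice and 0 to 0.206 under gavage vehicle (log2 fold change 2.21 ± 0.30, adjusted p = 0.000119). Junb, another AP-1 subunit, had -1.35 ± 0.26, and Ier3, a survival gene, -1.56 ± 0.26. Arc, known as an activity gene of neurons, measured 4.40, 5.90, 8.85, 7.79 and 8.60 CPM in TAA mice, 0.0332 to 0.592 (median 0.236) in ConA mice and 0 to 0.144 under gavage vehicle (log2 fold change 4.64 ± 0.43, adjusted p = 5.27e-06).

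Targets of p53 were also above vehicle in both, in 10 of 11 genes for TAA and 8 for ConA, against 26.4% and 16.8% of all genes. Between the injuries 1 was higher in TAA and 2 in ConA, a share near the 29.6% of all genes that were called; the median was -0.24, and 0.34 with library totals. Trp53inp1, a p53 target that promotes cell death, measured 16.8, 5.78, 14.9, 12.5 and 14.1 CPM in TAA mice and 49.1 to 319 (median 209) in ConA mice (log2 fold change -3.76 ± 0.49, adjusted p = 9.1e-05). Bax, a pore-forming death protein, had 0.80 ± 0.23, and this call was lost without TAA 3 (0.73, adjusted p = 0.053).

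Of 12 cell cycle genes tested, 5 were higher in TAA (14.7% of all genes) and 0 in ConA, with a median of 0.52. Against vehicle, 9 were higher and 2 lower in TAA (7 and 3 without gavage mice 1 to 4). In ConA 3 were higher and 2 lower. Ccnd1, cyclin D1, measured 18.8, 34.7, 21.6, 33.8 and 21.0 CPM in TAA mice and 3.89 to 16.1 (median 8.75) in ConA mice (log2 fold change 1.48 ± 0.33, adjusted p = 0.00403). E2f1, a factor of entry into S phase, had 2.44 ± 0.33, and Ccne1, cyclin E1, 0.98 ± 0.30, a call lost without TAA 8 (0.76, adjusted p = 0.0819). Against its vehicle, E2f1 was lower in TAA (-0.49 ± 0.15, adjusted p = 0.00907). A further 7 members were too low to test, among them Mki67, a proliferation marker, which measured 0.0356 to 0.132 CPM in TAA mice and 0.126 to 0.660 in ConA mice.

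Of 12 genes in the hepatocyte identity list, 2 were higher in ConA and 10 were not called, a share near the 15% of all genes tested that were higher in ConA. The median was -0.07, and 0.51 with library totals. Alb, albumin, measured 37085 to 56409.6 CPM in TAA mice and 17169 to 46294 in ConA mice (log2 fold change 0.19 ± 0.23, adjusted p = 0.572), and was called higher in TAA with library totals (0.82, adjusted p = 0.000501). Hnf4a, a master factor of hepatocytes, measured 86.3 to 172 CPM in TAA mice and 95.6 to 144 in ConA mice (log2 fold change -0.15 ± 0.19, adjusted p = 0.587), with 0.42 under library totals. Cebpa, a factor of hepatocyte metabolism, had -1.60 ± 0.27 and Tat, tyrosine aminotransferase, -1.68 ± 0.24. Without TAA 1 and ConA 12, 5 of the 12 were higher in ConA and the median was -0.29.

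Pericentral genes did not move as a block. Of 10 tested, 2 were higher in TAA and 4 in ConA; the median was -0.33, and 0.24 with library totals. Cyp2e1, the enzyme that activates TAA, measured 3566, 1473, 1694, 951 and 1573 CPM in TAA mice and 908 to 3857 (median 3036) in ConA mice and was not called (log2 fold change -0.51 ± 0.36, adjusted p = 0.301; 0.06 with library totals). Without TAA 1 and ConA 12, Cyp2e1 was called higher in ConA (-1.05, adjusted p = 0.00447). Glul, glutamine synthetase, measured 287, 123, 130.1, 90.4 and 103 CPM in TAA mice and 210.2 to 861 (median 572) in ConA mice (log2 fold change -2.03 ± 0.36, adjusted p = 0.00101). The groups overlapped only in TAA 1 and ConA 12. Glul was below vehicle in TAA (-1.56 ± 0.24), with 0.51 ± 0.42 in ConA (adjusted p = 0.376). Cyp1a2, a pericentral enzyme induced through the AHR, measured 440.0, 207, 175, 156 and 365 CPM in TAA mice and 20.3 to 102 (median 55.5) in ConA mice (log2 fold change 2.15 ± 0.36, adjusted p = 0.000645), and both injuries were below vehicle (-0.95 ± 0.24 and -3.15 ± 0.40). Axin2, a Wnt target, had 1.71 ± 0.32.

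Of 11 periportal genes tested, 4 were higher in ConA and 7 were not called, against 29.6% of all genes called and 15% higher in ConA; the median was -0.49, and 0.09 with library totals. Sds, serine dehydratase, measured 87.6, 36.9, 34.9, 49.8 and 53.7 CPM in TAA mice and 119 to 499 (median 389.9) in ConA mice (log2 fold change -2.68 ± 0.38, adjusted p = 0.000187). Pck1, of glucose synthesis, had -1.33 ± 0.33. Cyp2f2 was below vehicle in both and not called between them (0.49 ± 0.33), but called higher in TAA with library totals (1.08, adjusted p = 0.00121). Its value was 0.08 without TAA 1, and -0.06 without TAA 1 and ConA 12.

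Of 14 xenobiotic oxidation genes, 5 were higher in TAA and 0 in ConA, against 29.6% of all genes called and 14.7% higher in TAA, with a median of 0.22. Against vehicle, 9 were lower and 1 higher in TAA, and 7 were lower and 1 higher in ConA. Cyp2a5, a coumarin hydroxylase, measured 179, 332, 147, 131 and 371 CPM in TAA mice and 16.6 to 91.2 (median 37.3) in ConA mice (log2 fold change 2.14 ± 0.45, adjusted p = 0.00309). Its close paralog Cyp2a4 had 4.70 ± 0.69, and the 2 may share counts. Fmo5, a flavin monooxygenase, had 2.04 ± 0.27, and Nr1i3, the receptor CAR, 1.31 ± 0.20. Without TAA 1 and ConA 12, 5 of the 14 were higher in each group and the median was -0.11; Cyp3a11, not called with all mice (-0.34 ± 0.36), was then higher in ConA (-0.72, adjusted p = 0.0285), while with library totals its value was 0.26.

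Of 12 bile acid genes, 10 were below vehicle in TAA and 6 in ConA, against 24% and 17.3% of all genes. Between the injuries, 3 were higher in TAA and 1 in ConA, a share near the 29.6% of all genes that were called, with a median of 0.24. Nr0b2, the repressor SHP, measured 3.86, 9.16, 5.08, 4.48 and 3.33 CPM in TAA mice, 0.108 to 1.44 (median 0.678) in ConA mice and a median of 64.3 under gavage vehicle (log2 fold change 2.82 ± 0.49, adjusted p = 0.000835). Abcc2, the canalicular exporter MRP2, had 1.88 ± 0.22. Cyp8b1, the sterol 12-alpha-hydroxylase, measured 17.0, 2.79, 3.92, 3.58 and 2.52 CPM in TAA mice and 8.03 to 54.5 (median 44.0) in ConA mice (log2 fold change -2.77 ± 0.57, adjusted p = 0.00275), with TAA 1 above and ConA 12 below the rest of their groups. Cyp7a1, the rate-limiting enzyme of bile acid synthesis, spread from 0.553 to 23.2 CPM in TAA mice and 0.0649 to 10.9 in ConA mice and was not called (log2 fold change 1.23 ± 0.99, adjusted p = 0.377). The value was 0.11 without TAA 7 and 1.98 without ConA 2.

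Cholesterol synthesis genes were higher in TAA in 7 of 11 and in ConA in 0, with a median of 0.99. Their summed level was 210 to 434 CPM in TAA mice, 127 to 265 in ConA mice and 366 to 792 under gavage vehicle. Idi1, of the isoprenoid pathway, measured 4.89, 13.2, 9.04, 10.4 and 5.42 CPM in TAA mice and 0.725 to 4.13 (median 2.04) in ConA mice (log2 fold change 2.14 ± 0.41, adjusted p = 0.00166). Hmgcs1, an early enzyme of the pathway, had 1.77 ± 0.34. All 8 fatty acid synthesis genes tested were below vehicle in both injuries. Between them, Thrsp (-2.57 ± 0.55), Srebf1 (adjusted p = 0.00912) and Mlxipl (-0.68 ± 0.23), regulators of lipogenesis, were higher in ConA, and the enzymes Acaca (1.20 ± 0.29) and Acly (0.70 ± 0.18) in TAA. The median of the 8 was -0.19, and 0.40 with library totals. Srebf1 lost its call with library totals (-0.43, adjusted p = 0.285). Fasn, fatty acid synthase, was not called (-0.26 ± 0.27; 0.38 with library totals).

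Fatty acid oxidation and lipid droplet genes were above vehicle in 9 of 12 in TAA and 8 in ConA, against 26.4% and 16.8% of all genes. Between the injuries 3 were higher in ConA and 0 in TAA, a share near the 29.6% of all genes that were called; the median was -0.24, and 0.37 with library totals. The 3 were Pdk4, which spares glucose from oxidation (-1.87 ± 0.40), Cyp4a14, a fatty acid hydroxylase (-0.92 ± 0.27), and Angptl4, an inhibitor of lipoprotein lipase (-0.60 ± 0.14). Net of the vehicles, as defined later, 1 of the 12 was called, Pdk4. Cyp4a14 lost its call (adjusted p = 0.291), and Angptl4 lost both call and sign (0.05 ± 0.62, adjusted p = 0.995).

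Mitochondrially encoded genes were higher in ConA in 7 of 9, with a median of -1.16. The gene mt-Co3, a subunit of cytochrome oxidase, measured 5778, 2424, 3068, 7804 and 4139 CPM in TAA mice and 7507 to 24404 (median 13753) in ConA mice (log2 fold change -1.61 ± 0.38, adjusted p = 0.00615), and the groups overlapped. With library totals 3 of the 9 were higher in ConA. The saline mice themselves spanned 6.79% to 25.4% of mitochondrial transcripts, and the share was not tested as a cause of any result.

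**Figure D4:**
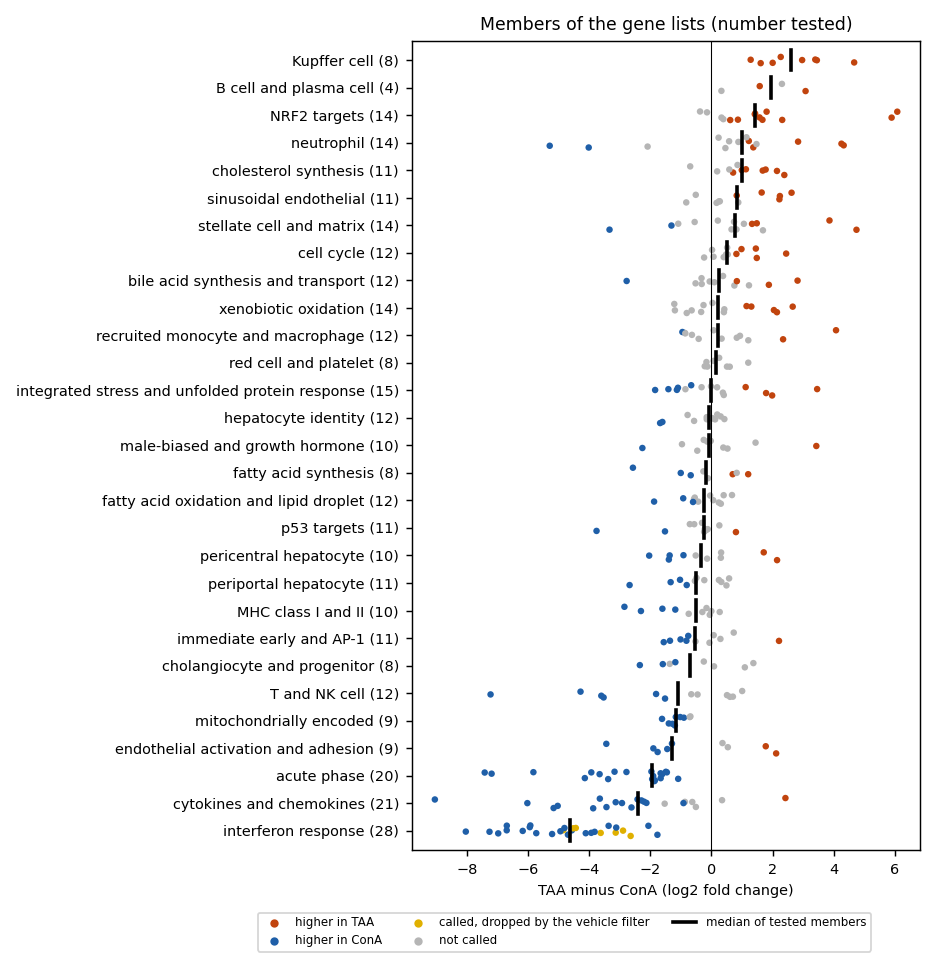
Log2 fold change of TAA minus ConA for every tested member of the gene lists with at least 3 genes tested. Each point is a gene, coloured by its call, and the black bar is the median of the list; interferon (-4.63), cytokine (-2.42) and acute phase genes (-1.95) lie at the ConA end and Kupffer cell markers (2.62) at the TAA end.

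The following genes were not called between the 2 groups. Since the pair was chosen for its likeness, these genes are described without support for that likeness. Cdkn1a, the cell cycle inhibitor p21, measured 288, 204, 201, 175 and 263 CPM in TAA mice, 231 to 299 (median 261) in ConA mice and a median of 12.2 under gavage vehicle (log2 fold change -0.24 ± 0.15, adjusted p = 0.245). Its change from vehicle was 4.29 ± 0.33 in TAA and 4.33 ± 0.28 in ConA. Mdm2, the p53 ubiquitin ligase, had -0.31 ± 0.25 between them. With library totals the values were 0.34 for Cdkn1a and 0.30 for Mdm2.

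Krt8, a keratin of hepatocytes and ducts, was at 1589 to 2129 CPM in TAA mice and 1545 to 2010.0 in ConA mice, from a median of 144 (log2 fold change 0.09 ± 0.13, adjusted p = 0.667). Its partner Krt18 had -0.25 ± 0.15, and 0.39 with library totals. Jun, an AP-1 subunit, had -0.06 ± 0.37, and 0.56 with library totals. Cidec, a lipid droplet protein, was at 77.1 to 168 CPM in TAA mice and 42.5 to 132 in ConA mice, from a median of 0.680 (log2 fold change 0.31 ± 0.27, adjusted p = 0.421). With library totals Krt8 (0.71, adjusted p = 0.0184), Cidec (0.92, adjusted p = 0.0348) and Hmox1 (0.94, adjusted p = 0.00302) were called higher in TAA.

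Of the 8 red cell and platelet genes, 0 were called between the groups. Hba-a1, a haemoglobin alpha gene with a near-identical copy, measured 1623, 1444, 929, 1789 and 947 CPM in TAA mice and 363 to 2497 (median 1536) in ConA mice (log2 fold change -0.22 ± 0.38, adjusted p = 0.703; 0.49 with library totals). The median under gavage vehicle was 43.5 CPM. The summed level of the list was 2639 to 4715 CPM in TAA mice and 1138 to 6170 in ConA mice, against 85.4 to 333 under gavage vehicle. The labels state that the livers were perfused.

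Genes that both injuries lowered included Cyp2c29, a constitutive P450, and Hsd3b5, a male-biased steroid enzyme. Cyp2c29 measured 158, 94.3, 118, 79.2 and 131 CPM in TAA mice, 27.8 to 159.7 (median 133) in ConA mice and a median of 936 under gavage vehicle (log2 fold change 0.03 ± 0.35, adjusted p = 0.953). Hsd3b5 measured 12.3, 0.641, 1.80, 4.63 and 3.98 CPM in TAA mice, 0.106 to 4.59 (median 1.47) in ConA mice and a median of 80.7 (log2 fold change 1.44 ± 0.70, adjusted p = 0.138), and was called higher in TAA with library totals (1.95, adjusted p = 0.0187). Its value was 0.68, adjusted p = 0.481 without TAA 1, and 0.45, adjusted p = 0.543 without TAA 1 and ConA 12. Elovl3, another male-biased gene, was called higher in TAA (3.43 ± 0.62). Socs2, an inhibitor of growth hormone signalling, was higher in ConA (-2.26 ± 0.27).

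**Figure D5:**
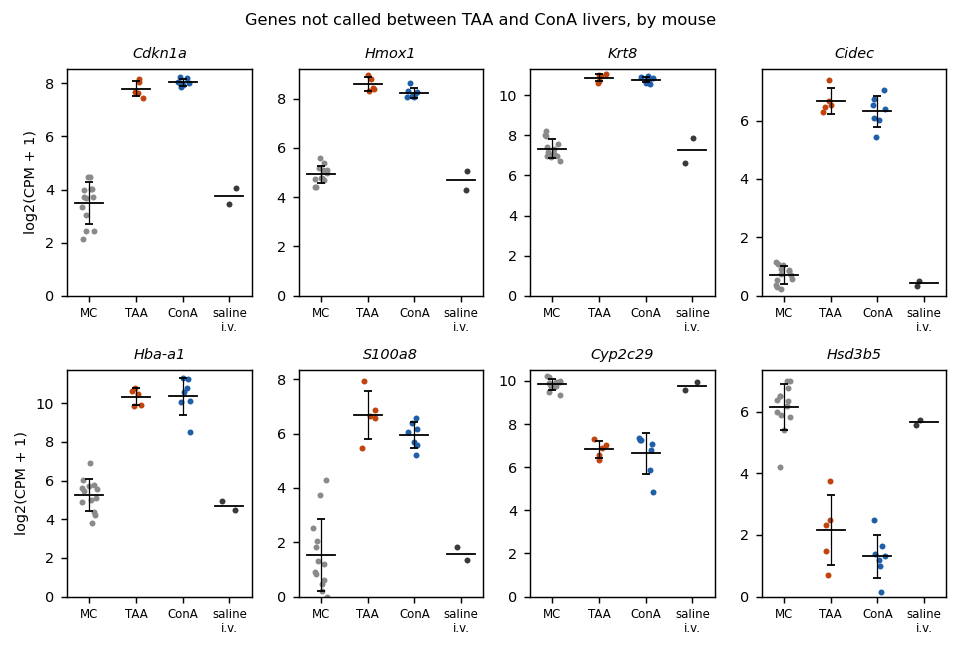
Level of 8 genes not called between TAA and ConA, as log2(CPM + 1), in each mouse given methylcellulose (MC, 13 mice), TAA (5), ConA (7) or intravenous saline (2). Bars show the mean and, for groups of more than 2, the SD; the first 6 genes lie above both vehicles in both injuries and the last 2 below them.

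The comparison was repeated net of the vehicles, as the change of TAA from methylcellulose minus the change of ConA from saline. Of 16760 genes tested this way, 1826 (10.9%) were called, 1003 with the larger value in TAA (5.98%) and 823 in ConA (4.91%); with library totals 91.2% of calls were larger in TAA, against 54.9%. The interferon list held 26 net calls of 28, the acute phase list 17 of 20, the Kupffer list 7 of 8 and the NRF2 list 8 of 14. Net values were -7.54 ± 0.84 for Gbp2, -8.96 ± 1.05 for Cxcl9, 4.48 ± 0.40 for Slc40a1 and 5.61 ± 0.70 for Acta2. Fewer were called net in the cytokine list (6 of 21), the T and natural killer cell list (2 of 12), the neutrophil list (2 of 14), the adhesion list (1 of 9), and the p53 and immediate early lists (0 of 11 each). Without gavage mice 1 to 4, 1498 genes were called net, with 10 of 21 in the cytokine list and 5 of 12 in the T and natural killer cell list. Ccl2 (adjusted p = 0.0206), Lcn2 (0.0156), Cxcl2 (0.0370) and Gzma (0.0308) were among the genes that then passed, and Cyp8b1 (0.0752) and Thrsp (0.0756) among those that no longer did. Of the 117 genes called in the direct test among the 145 named genes followed in the alternatives, 24 kept their sign but were not called net. Mmp8 changed sign and was not called. Among the 24 were Csf3 (-6.01 ± 2.21, adjusted p = 0.0816), Ccl2 (-3.13 ± 1.26, adjusted p = 0.113), Timp1 (-2.77 ± 1.25, adjusted p = 0.162), Lcn2 (-3.88 ± 1.46, adjusted p = 0.0881) and Fosl1 (2.42 ± 1.15, adjusted p = 0.187). Of the immune genes, adjusted p was 0.259 for Il6, 0.212 for Il1b, 0.0788 for Cxcl2, 0.267 for Vcam1, 0.311 for Selp, 0.092 for Gzma, 0.126 for Ctla4, 0.152 for Camp, 0.11 for Cxcr2 and 0.137 for Iigp1. Of the others it was 0.0813 for Ddit3, 0.168 for Ccnd1, 0.105 for Trp53inp1, 0.0884 for Bax, 0.116 for Junb, 0.32 for Ier3, 0.122 for Acaca, 0.103 for Slc7a11 and 0.115 for mt-Co3. Further list members named above, outside the followed set, were called in the direct test and not net. For these, adjusted p was 0.246 for Sele, 0.0734 for Esm1, 0.464 for Apln, 0.216 for Cd79b, 0.104 for Il2rb and 0.114 for Nkg7. It was 0.649 for Retnlg, 0.814 for Mmp9, 0.43 for Pck1, 0.079 for Mlxipl, 0.254 for Acly, 0.291 for Cyp4a14 and 0.0577 for Socs2. Angptl4 changed sign (0.05 ± 0.62, adjusted p = 0.995). The saline group held 2 mice. Without the mouse CIV 8 the net test called 1144 genes, and the 1 saline mouse left was then assumed to vary like the other groups. The direct and the net test share the TAA and ConA mice.

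The largest differences, among called genes with no overlap and a mean of at least 5 CPM in the higher group, were mostly members of the groups above. The 10 lowest values belonged to Ccl11, Cxcl9, Tgtp1, Gbp2, Gbp11, Saa3, Duoxa2, Gbp5, Saa2 and Serpina3i. Duoxa2, a partner of an epithelial oxidase, measured 0.0844, 0.0256, 0.168, 1.38 and 0.0287 CPM in TAA mice and 23.6 to 85.4 (median 48.4) in ConA mice (log2 fold change -7.27 ± 0.82, adjusted p = 2.74e-05). Serpina3i, a protease inhibitor from a family of near copies, had -7.10 ± 0.53. The 10 highest belonged to Gsta1, Gstm3, Cd163, Akr1c18, Acta2, Gzmm, Cyp2a4, Slc40a1, Arc and Csf3r. Akr1c18, a steroid-reducing enzyme with close relatives, measured 2.16, 10.0, 4.65, 4.92 and 5.72 CPM in TAA mice and 0 to 0.338 (median 0) in ConA mice (log2 fold change 5.41 ± 0.64, adjusted p = 4.06e-05). In 4 of the 7 ConA mice Akr1c18 was at 0.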

How the data were processed

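Bulk poly(A) RNA-seq of liver (TruSeq Stranded mRNA, single-end reads, per the labels' protocols) was analysed from the estimated counts per gene that the authors deposited. These were made with Salmon 1.6.0 and R 4.1.3 on build GRCm39, per the submitters' processing notes; counting options and annotation are not given in the sources used here. Among 6511 single-transcript genes, longer transcripts had lower minimum nonzero values (Spearman -0.953), so the estimated counts appear scaled for length, and no counting intervals were computed. Symbols came from GENCODE M21, which matched 51482 of 54307 identifiers.

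Estimated counts were rounded and tested with edgeR 4.0.16 (quasi-likelihood F test, TMM scaling, filterByExpr) with Benjamini-Hochberg adjustment over all genes tested; a standard error is the absolute log2 fold change divided by the square root of F. The direct test used the 5 TAA and 7 ConA mice only. Methylcellulose and saline mice were tested against each other for the vehicle filter, and the net test used all 4 groups. Levels are CPM over the 27 mice of the 4 groups. Nothing in the labels names separate litters or days, so p-values measure the spread between these mice. On simulated counts for 12999 genes the direct test recovered 79.4% of changes of log2 size 2 and 21.2% of size 1, with 6.67% false calls. Only 97 genes of size 2 and 99 of size 1 were changed there, with changes simulated equally in both directions. In the data 30.3% of genes were called, so these rates need not hold for them. DESeq2 1.42.0 and limma 3.58.1 served as alternatives, with other scalings, filters and sets of mice.

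Named genes were key genes of the lists, the members with the lowest p in each direction with further members where a list is described, and the 10 highest and 10 lowest fold changes among kept calls without overlap and with a mean of at least 5 CPM in the higher group. The members and lists were chosen with earlier results of these data known. Counts of named genes in the alternatives and the net test cover a set of 145 genes followed there. Other list members named as examples are outside that set. Some genes of the lists are counted with their list but not reported here by name. Replicate numbers pair no mice: only numbers 3 and 8 occur in both groups, and deviations from the group mean correlated at 0.137 and 0.0515.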

Additional observations from a re-analysis of the deposited data

Results flagged for a closer look

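Each value here comes from a mouse whose level lay apart from the rest of its group by more than Dixon's 95% limit. Of the 300 groups of values checked, 33 gave such a mouse, where chance gives about 1 in 20, or 15.

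In TAA 1, 12 values stood apart. It had Alb at 56409.6 CPM (37085 to 40013 in the others), Saa1 at 485 CPM (202 to 227 in the others) and Lcn2 at 830.2 CPM (1849 to 1969 in the others). Further values were Stat2 at 10.6 CPM (18.6 to 22.0 in the others), H2-K1 at 1037 CPM (735 to 802 in the others) and H2-D1 at 451 CPM (257 to 296 in the others). The mouse also had B2m at 2493 CPM (1085 to 1282 in the others), Marco at 14.6 CPM (56.3 to 69.6 in the others) and Cyp8b1 at 17.0 CPM (2.52 to 3.92 in the others). The last were Cebpa at 60.5 CPM (24.3 to 30.9 in the others), hepatocyte identity sum at 104060.0 CPM (62685 to 70291 in the others) and B cell and plasma cell sum at 10.6 CPM (17.1 to 18.5 in the others).

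In ConA 12, 11 values stood apart. It had Gbp2 at 289.9 CPM (603 to 791 in the others), Gpnmb at 2.73 CPM (0.474 to 0.862 in the others) and Alb at 17169 CPM (35471 to 46294 in the others). Further values were Glul at 210.2 CPM (508 to 861 in the others), Cyp2f2 at 131 CPM (282 to 456 in the others) and Cd163 at 0.361 CPM (0.0521 to 0.121 in the others). The mouse also had Isg15 at 473 CPM (1049 to 1462 in the others), Cyp8b1 at 8.03 CPM (30.2 to 54.5 in the others) and Usp18 at 42.7 CPM (90.0 to 153 in the others). The last were Cyp3a11 at 157 CPM (539.9 to 1141 in the others) and hepatocyte identity sum at 37075 CPM (60301 to 79695 in the others).

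In TAA 7, 7 values stood apart. It had Cd274 at 6.75 CPM (1.29 to 2.25 in the others), Ifng at 0.0285 CPM (0 in the others) and Slc7a11 at 2.40 CPM (0.575 to 0.786 in the others). Further values were Duoxa2 at 1.38 CPM (0.0256 to 0.168 in the others), Il6 at 2.76 CPM (0 to 0.344 in the others) and Il1b at 43.2 CPM (2.62 to 6.09 in the others). The mouse also had Ier3 at 143 CPM (46.7 to 64.2 in the others).

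In ConA 8, 2 values stood apart. It had Ifng at 0.397 CPM (1.57 to 2.88 in the others) and Hspa1a at 5.52 CPM (0.342 to 1.53 in the others).

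In TAA 3, 1 value stood apart. It had Trp53inp1 at 5.78 CPM (12.5 to 16.8 in the others).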

How the results depend on the processing

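The direct comparison called 4019 genes, 3934 after the vehicle filter. Leaving out 1 mouse at a time gave 3282 to 4405 calls, 3217 to 4309 after the filter. DESeq2 called 4528, limma 4187, size factors from DESeq2's method 4030 and no low-count filter 3747. All 57 mice in 1 fit gave 4556 calls, 56.5% of them higher in TAA. In that fit 5 named genes lost their call and 1 gained a call. A mean of at least 5 CPM gave 2513 calls (2457 after the filter), where fewer genes were tested, and an absolute log2 difference of at least 1 gave 2294. Only mice numbered 1 to 4 gave 1209 (1164) and only mice numbered above 4 gave 1930 (1887), with fewer samples. Adding a replicate block, with 1 residual degree of freedom left, gave 848 (809 after the filter), 736 of them shared with the direct test; the 2 shared numbers do not pair the mice. Net of the vehicles, 1826 genes were called (1802 with the filter). Without TAA 1 and ConA 12, chosen after seeing the data, 4924 were called.

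With 1 of the 2 saline mice left out, the other is assumed to vary like the remaining groups, so such counts rest on the spread of those groups. The vehicle comparison called 4 genes, and 148 without CIV 7 or 6 without CIV 8. ConA against saline called 4827, and 3685 to 3921 with 1 saline mouse left out. Without gavage mice 1 to 4, chosen after seeing the data, the vehicle comparison called 1 gene, TAA against its vehicle 6862 and the net test 1498, 1402 of them shared with the 1826. Of the 117 genes called in the direct test among the 145 named genes followed in the alternatives, 27 then kept their sign without a net call. The net test called 1144 without CIV 8, 1734 without CIV 7 and 3482 with library totals (3175 larger in TAA). Of the 117 followed genes called in the direct test, Mmp8 was the only one to change sign in the alternatives run. Its net value was -0.0865 (adjusted p = 0.676), where the saline mice measured 0 and 0.0109 CPM, and the cause was not tested. Angptl4, outside the followed set, also changed sign net (0.05 ± 0.62, adjusted p = 0.995). Of the named genes without a call, 6 changed sign net of vehicles (Alb, Cidec, Cyp2c29, H2-Aa, S100a9 and Stab2) and 10 with library totals (Cdkn1a, Cyp2e1, Cyp3a11, Fasn, H2-Aa, Hba-a1, Hnf4a, Jun, Krt18 and Mdm2), and up to 4 in the other alternatives. Net of vehicles 24 of the followed genes lost their call without a change of sign, and further list members outside that set lost theirs, as given above. With library totals 12 gained and 3 lost a call.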
